A study of Mus musculus with 4 samples.

Results

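The genes described here make, break down and read out cyclic AMP (cAMP) in primary cultures of mouse cerebral cortex: adenylyl cyclases, cyclic nucleotide phosphodiesterases, the subunits of protein kinase A (PKA) and A-kinase anchoring proteins (AKAPs). They were chosen by symbol alone, as every probe set of the array whose single annotated gene was a numbered Adcy gene, a phosphodiesterase gene of the Pde type with a final letter a to d, Prkaca, Prkacb, Prkar1a, Prkar1b, Prkar2a, Prkar2b or a numbered Akap gene. This gave 134 of 45037 probe sets, which stood for 51 of 18193 genes: 10 adenylyl cyclases, 21 phosphodiesterase genes, 6 PKA subunits and 14 AKAPs.

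Adenylyl cyclases turn ATP into cAMP when a receptor activates the stimulatory G protein, and the isoforms differ in how calcium and G protein subunits tune them. Phosphodiesterases hydrolyse cAMP, cGMP or both, and so set how long and how far the signal spreads. PKA is a tetramer in which a pair of regulatory subunits holds a pair of catalytic subunits inactive until cAMP binds, and AKAPs tether it near its substrates. In neurons this pathway is best known for its part in synaptic plasticity, and in astrocytes for responses to noradrenaline and for changes of cell shape in culture.

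Neuron cultures (2 arrays) came from C57BL6 fetuses of embryonic day 16 and were kept in medium in which fetal calf serum was lowered to 1%, with antibiotics, insulin, transferrin, 30 nM selenite, 100 nM putrescine and 20 nM progesterone; glucose was at 19.4 mM and glutamine at 4 mM. Astrocyte cultures (2 arrays) came from newborn C57BL6 animals and were kept in antibiotic-containing medium with glutamine at 2 mM, glucose at 33 mM and 10% fetal calf serum. Time in vitro was 7 days for neurons and 20 days for astrocytes by the series' design text, but 7 to 8 days for all assays by its protocols. Differences of cell type, of donor age, of medium and of time in vitro cannot be told apart here. Nothing in the labels says how many animals each culture pooled.

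Both cultures carried the defining markers of their labels, and markers of other cell types were also present. All 12 neuron markers were higher in neurons, and their signals summed to 35036 to 35402 per neuron array, against 2980 to 3182 per astrocyte array; 4 were at or under background in astrocytes. The 12 astrocyte markers summed to 11976 to 12673 per neuron array, against 24171 to 24620 per astrocyte array, with 9 higher in astrocytes and 2, Slc1a2 and Aldoc, higher in neurons. Among the defining genes, Tubb3 had 2875 and 3021 in neurons, against 68 and 63 in astrocytes, and Snap25 had 4360 and 3813 in neurons, against 1 and 2 in astrocytes. Gfap had 2 and 109 in neurons, against 1744 and 2133 in astrocytes, and Aqp4 had 551 and 701 in neurons, against 4668 and 3859 in astrocytes. Of the other lists, astrocytes had the higher signal for 7 of 10 fibroblast, 7 of 12 microglia, 2 of 12 endothelial or mural and 4 of 8 ependymal markers, and neurons for 7 of 10 cell cycle genes and 1 fibroblast marker, Lum. Of 10 genes of the oligodendrocyte lineage 4 were higher in neurons and 2, Olig1 and Cnp, in astrocytes, with sums of 4933 to 5705 per neuron array and 5550 to 6140 per astrocyte array, and Olig2 did not pass (663 and 642 in neurons, 617 and 508 in astrocytes). The microglial marker Aif1 and the endothelial marker Pecam1 were too dim to be tested in either culture. Which cells held the transcripts described below was not tested, and in bulk RNA fewer cells of a type and less RNA per cell cannot be told apart.

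As a whole, the cAMP genes were more often higher in neurons than in astrocytes. Signals were compared on a log2(signal + 12.5) scale with limma, and a gene was called at an adjusted p under 0.05; all folds are on this scale unless given as "at least". A gene was tested where its signal reached the array's median (32 to 37) on at least 2 of the 4 arrays, which held for 41 of the 51 genes. Of these 51 genes, 27 were higher in neurons, 8 were higher in astrocytes, 6 did not pass and 10 were too dim to be tested. The count of 8 became 4 without neurons replicate 1 or without astrocytes replicate 2, and 5 without astrocytes replicate 1. Of all 12040 genes tested, 31.0% were higher in neurons and 31.1% in astrocytes, 62.2% in all. Groups did not overlap in 36 of the 41 tested genes, against 81.9% of all tested genes. The median log2 fold change (neurons minus astrocytes) was 0.95 over the 41 genes and 0.02 over all tested genes. Of the 41 genes, 4 reached the filter through the neuron arrays alone (Adcy7, Pde4a, Prkar2b and Akap5) and 1 through the astrocyte arrays alone (Akap14), so that a difference was built into their passing. These genes remain in the counts of 27 and 8 and in the family counts and shares below. Their adjusted p values are no separate support for a difference. Of the 33 genes at or above the median on all 4 arrays, 21 were higher in neurons, 7 were higher in astrocytes and 5 did not pass. Of all 9332 such genes, 28.3% were higher in neurons and 29.6% in astrocytes.

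**Figure D1:**
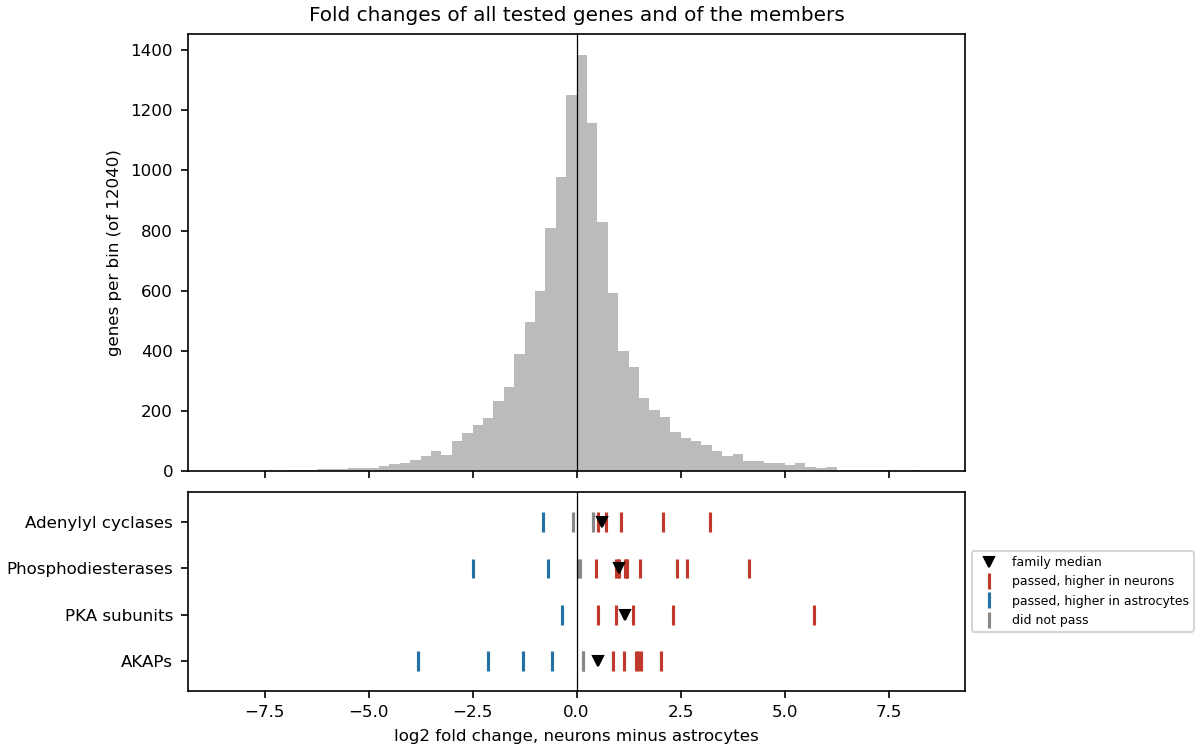
Log2 fold changes (neurons minus astrocytes) of all 12040 tested genes as a histogram (top) and of the 41 tested cAMP genes by family (bottom), where a tick is a gene and a triangle the family median. The histogram centres on a median of 0.02, while the family medians are 0.61 for adenylyl cyclases, 1.01 for phosphodiesterases, 1.16 for PKA subunits and 0.51 for AKAPs.

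Among the adenylyl cyclases, 5 of 10 genes were higher in neurons and 1, Adcy6, was higher in astrocytes. Of the 8 tested, 62.5% were higher in neurons and 12.5% in astrocytes, against 31.0% and 31.1% of all tested genes. The count of 5 became 3 when neurons replicate 1 or astrocytes replicate 1 was left out. Adcy1, the calcium- and calmodulin-stimulated cyclase of neurons, had signals of 1822 and 1552 in neurons, against 199 and 144 in astrocytes. The groups were far apart, with a 9.31-fold excess in neurons (log2 fold change 3.22, SE 0.17, adjusted p = 1.37e-06). Its second probe set, at 142 and 101 in neurons and 49 and 36 in astrocytes, gave a log2 fold change of 1.28, and the mean of both gave 2.25. Adcy3, another calcium-stimulated isoform found in neuronal primary cilia, was at 222 and 174 in neurons and 119 and 114 in astrocytes (1.62-fold, adjusted p = 0.00962). Adcy8, the remaining isoform of this class, was at 122 and 85 in neurons and 110 and 106 in astrocytes, so that the groups overlapped (log2 fold change -0.07, 95% interval -0.55 to 0.40, adjusted p = 0.786). The call of Adcy3 was lost without neurons replicate 1 (adjusted p = 0.0689), astrocytes replicate 1 (0.0911) or astrocytes replicate 2 (0.106).

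The 2 calcium-inhibited cyclases went opposite ways. Adcy5, known as the main cyclase of striatal neurons, had 274 and 275 in neurons, against 53 and 59 in astrocytes (4.19-fold higher, log2 fold change 2.07, SE 0.17, adjusted p = 1.41e-05). Adcy6, its closest relative, had 176 and 159 in neurons, against 262 and 344 in astrocytes (1.74-fold higher in astrocytes, log2 fold change -0.80, SE 0.18, adjusted p = 0.00442). The arrays of the groups did not overlap for either gene, which also held for 81.9% of all tested genes. The difference between the fold changes of the 2 genes was not tested. A second probe set of Adcy5 did not pass (109 and 113 in neurons, 75 and 87 in astrocytes, log2 fold change 0.40, adjusted p = 0.0923), and the mean of both probe sets gave 1.24. The Adcy6 call was lost when neurons replicate 1 (adjusted p = 0.0643), neurons replicate 2 (0.0875) or astrocytes replicate 2 (0.0733) was left out.

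Of the cyclases that G protein beta-gamma subunits or protein kinase C can stimulate, Adcy2 and Adcy7 passed and Adcy4 was too dim. Adcy2 had 383 and 359 in neurons, against 213 and 301 in astrocytes (1.44-fold, adjusted p = 0.0342). This call was lost without the filter (adjusted p = 0.0997), without the mean-variance trend (0.0677) and without neurons replicate 1 (0.234), neurons replicate 2 (0.180) or astrocytes replicate 1 (0.205). Adcy7 was dim, at 49 and 54 in neurons and 16 and 20 in astrocytes (2.10-fold, log2 fold change 1.07, SE 0.24, adjusted p = 0.00451), and reached the filter through the neuron arrays alone. Adcy9, a widely expressed isoform, did not pass by its brightest probe set (189 and 173 in neurons, 169 and 108 in astrocytes, log2 fold change 0.39, 95% interval -0.11 to 0.88, adjusted p = 0.160), although another of its 4 probe sets did (log2 fold change 0.52, adjusted p = 0.0221).

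**Figure D2:**
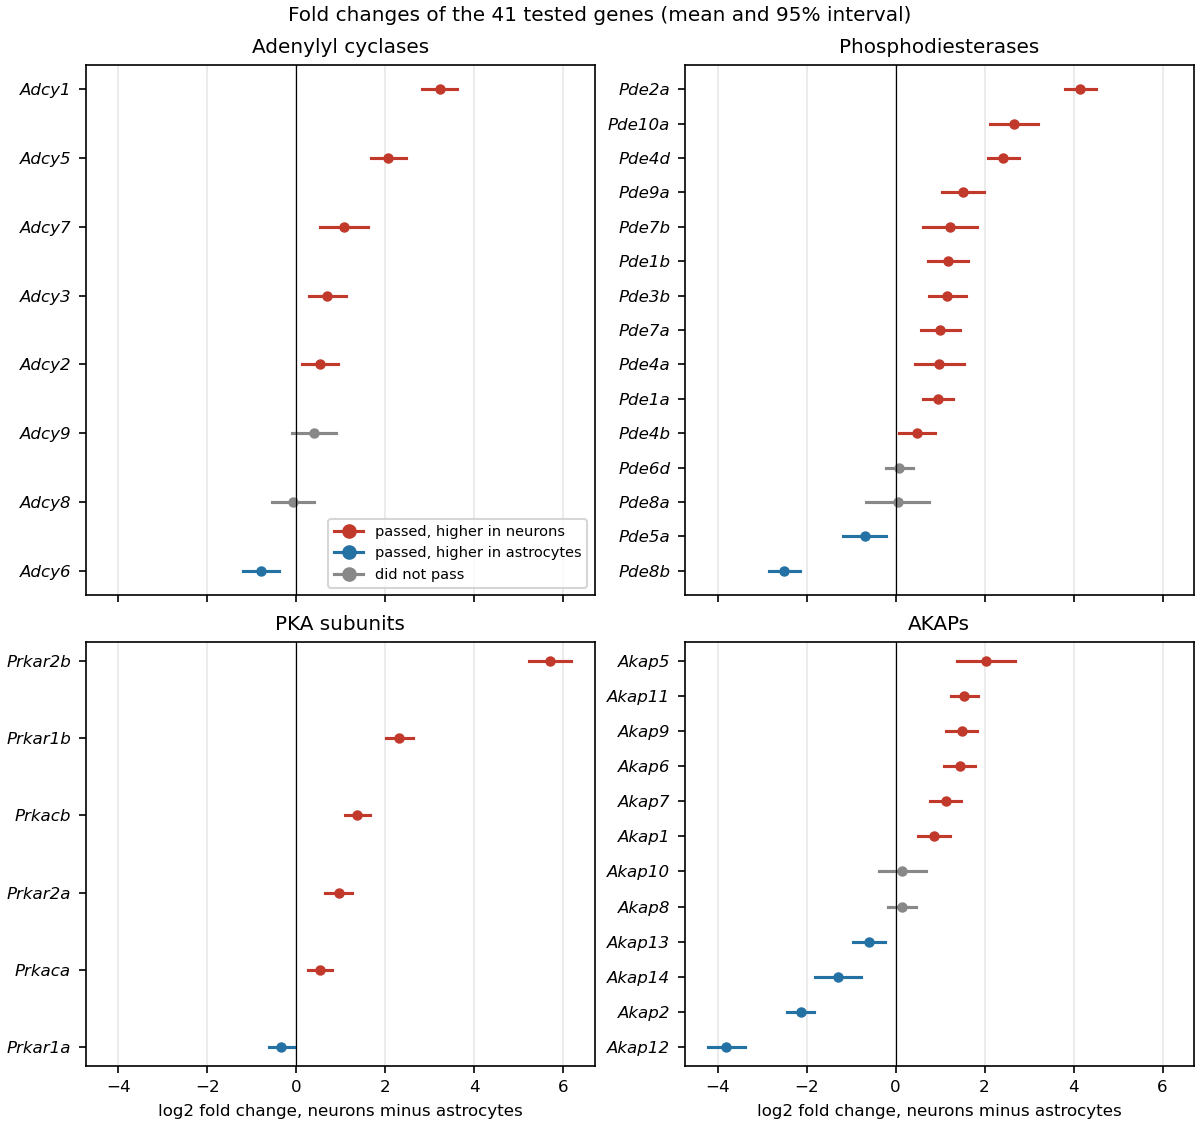
Log2 fold changes (neurons minus astrocytes) with 95% intervals from limma for the 41 tested genes, in a panel per family, with genes ordered by fold change and 2 arrays per group. Prkar2b (5.71), Pde2a (4.15) and Adcy1 (3.22) lie farthest towards neurons, and Akap12 (-3.80), Pde8b (-2.50) and Akap2 (-2.13) farthest towards astrocytes.

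Phosphodiesterase transcripts differed in 13 of 21 genes, with 11 higher in neurons (7 without astrocytes replicate 2) and 2 higher in astrocytes. Of the 15 tested, 73.3% were higher in neurons and 13.3% in astrocytes, against 31.0% and 31.1% of all tested genes. All 5 tested members that hydrolyse both cAMP and cGMP were higher in neurons, and the other 3 of that class were too dim. Pde2a, whose cAMP hydrolysis is stimulated by cGMP, had 2148 and 1815 in neurons, against 109 and 90 in astrocytes. That was a 17.8-fold excess in neurons (log2 fold change 4.15, SE 0.15, adjusted p = 2.41e-07), and its other 2 probe sets gave log2 fold changes of 3.78 and 2.16 (mean of the 3 probe sets 3.36). Pde10a, a phosphodiesterase known for its abundance in striatal neurons, had 515 and 568 in neurons, against 101 and 55 in astrocytes (6.32-fold, log2 fold change 2.66, SE 0.24, adjusted p = 2.47e-05). Its other tested probe sets gave smaller log2 fold changes, 1.24 and 1.10, so that the mean over its probe sets was 1.67.

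The calcium- and calmodulin-stimulated Pde1 genes and the cGMP-inhibited Pde3b showed smaller differences of the same direction. Pde1b had 132 and 126 in neurons, against 44 and 56 in astrocytes (2.27-fold, log2 fold change 1.19, SE 0.20, adjusted p = 0.000985). Pde1a had 663 and 532 in neurons, against 289 and 313 in astrocytes (1.94-fold, adjusted p = 0.000733). In neurons Pde3b was at 163 and 201, and in astrocytes it was at 74 on both arrays (2.24-fold, log2 fold change 1.16, SE 0.18, adjusted p = 0.000703). None of these 3 genes overlapped between the groups, which also held for 81.9% of all tested genes.

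The cAMP-specific phosphodiesterases held both a large excess in neurons and a large excess in astrocytes. Pde4d, a target of the inhibitor rolipram, had 690 and 669 in neurons, against 105 and 129 in astrocytes (5.37-fold, log2 fold change 2.42, SE 0.15, adjusted p = 3.29e-06). Pde8b, a high-affinity enzyme that the general inhibitor IBMX does not block, had 77 and 76 in neurons, against 488 and 494 in astrocytes. It was 5.66-fold higher in astrocytes (log2 fold change -2.50, SE 0.15, adjusted p = 2.36e-06). A second probe set of Pde8b, with 31 and 19 in neurons and 240 and 162 in astrocytes, gave the same log2 fold change of -2.50. Its paralog Pde8a did not pass (35 and 48 in neurons, 27 and 56 in astrocytes, log2 fold change 0.04, 95% interval -0.66 to 0.74, adjusted p = 0.916).

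The other Pde4 and Pde7 genes were moderately higher in neurons, and several of these calls depended on single arrays. Pde7a had 199 and 232 in neurons, against 117 and 86 in astrocytes (2.01-fold, log2 fold change 1.01, SE 0.19, adjusted p = 0.00216). All 6 of its tested probe sets were higher in neurons, with log2 fold changes from 0.79 to 1.55, yet the call of the brightest one was lost when neurons replicate 2 (adjusted p = 0.0685) or astrocytes replicate 2 (0.0519) was left out. Pde7b had 86 and 68 in neurons, against 34 and 19 in astrocytes (2.33-fold, log2 fold change 1.22, SE 0.26, adjusted p = 0.00405), with adjusted p = 0.0932 without neurons replicate 1, 0.0587 without neurons replicate 2 and 0.0617 without astrocytes replicate 2. Both genes had a higher signal on each neuron array than on each astrocyte array, as did 41.4% of all tested genes. Pde4a, at 52 and 42 in neurons and 19 and 16 in astrocytes, was 1.98-fold higher (adjusted p = 0.00796), a call lost when neurons replicate 1 (0.0625) or astrocytes replicate 2 (0.0627) was left out. Only the neuron arrays carried Pde4a through the filter. Pde4b, at 233 and 179 in neurons and 143 and 144 in astrocytes, was 1.39-fold higher (adjusted p = 0.0480). The Pde4b call was lost without the filter (adjusted p = 0.0958), with quantile normalization (0.0648), without the mean-variance trend (0.0651), with the replicate block (0.0537) and without neurons replicate 1 (0.177), astrocytes replicate 1 (0.205) or astrocytes replicate 2 (0.200).

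Among the cGMP-specific enzymes, Pde9a and Pde5a differed in opposite directions at low signals. Pde9a, which has a high affinity for cGMP, had 111 and 131 in neurons, against 31 and 37 in astrocytes (2.87-fold, log2 fold change 1.52, SE 0.21, adjusted p = 0.000298). Pde5a, the target of sildenafil and an enzyme of vascular smooth muscle, had 36 and 45 in neurons, against 72 and 74 in astrocytes (1.62-fold higher in astrocytes, log2 fold change -0.70, SE 0.21, adjusted p = 0.0215). The Pde5a call was lost without the filter (adjusted p = 0.0591) and without neurons replicate 1 (0.0837), astrocytes replicate 1 (0.0959) or astrocytes replicate 2 (0.106). On the same arrays the smooth muscle genes Acta2 (87 and 361 in neurons, 4544 and 4791 in astrocytes) and Tagln (6 and 95 in neurons, 2691 and 3331 in astrocytes) were higher in astrocytes. They were the 2 called genes of 12 endothelial and mural markers. Another 3 did not pass, among them Des (52 and 49 in neurons, 58 and 31 in astrocytes). The other 7 were too dim, among them Myh11 (11 and 2 in neurons, 3 and 16 in astrocytes). The 12 summed to 277 to 655 per neuron array and 7478 to 8325 per astrocyte array. Acta2 and Tagln made up most of the astrocyte sums. At or under background were 7 markers in neurons and 2 in astrocytes. The part of these markers in the Pde5a difference was not tested. The photoreceptor genes Pde6a, Pde6b and Pde6c were at 15 or less on every array. Pde6d, which despite its name is a chaperone for prenylated proteins, did not pass (442 and 503 in neurons, 445 and 442 in astrocytes, adjusted p = 0.610).

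**Figure D3:**
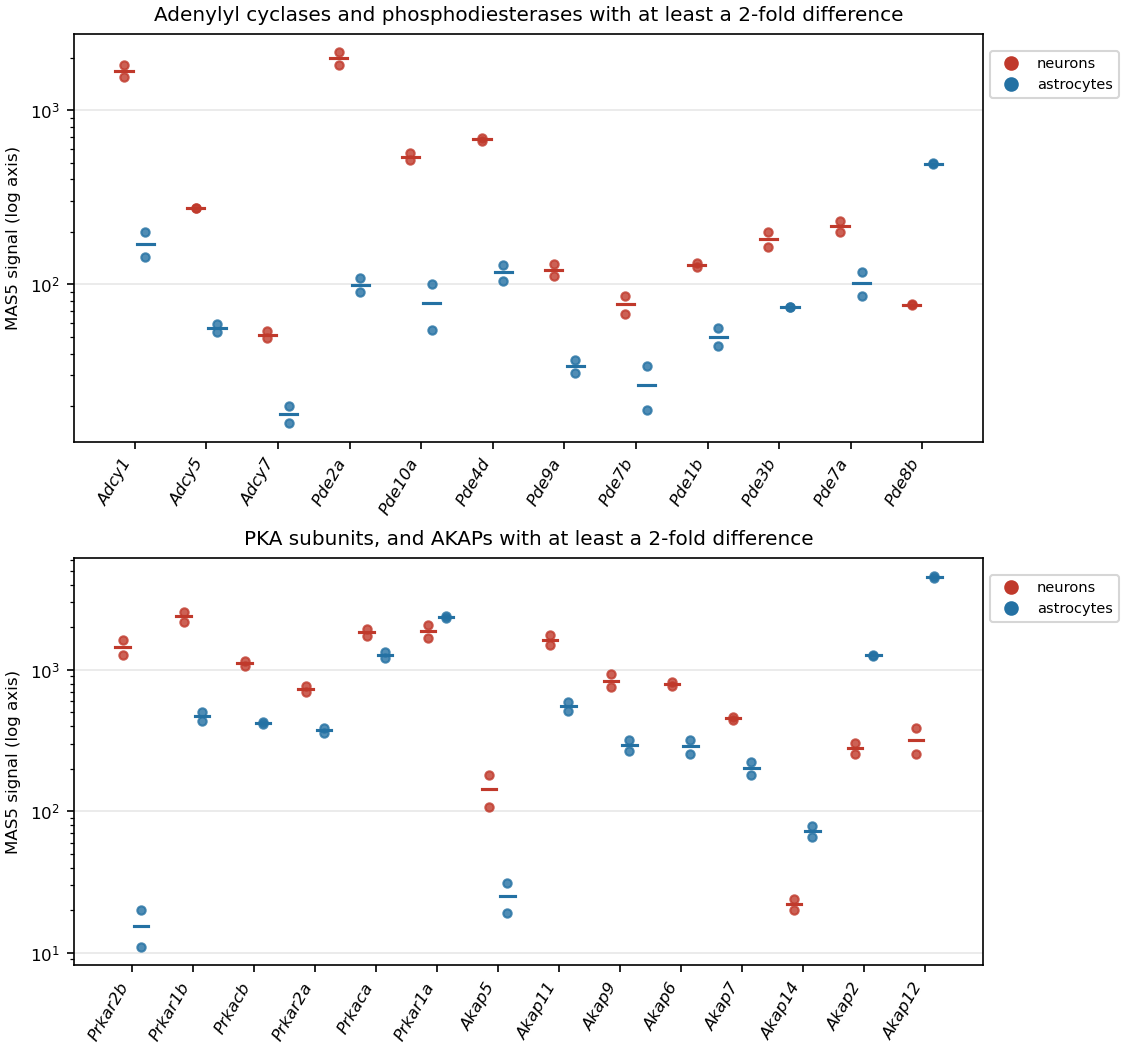
MAS5 signals on each of the 2 neuron arrays and 2 astrocyte arrays (points; horizontal lines are group means; log axis) for the adenylyl cyclases and phosphodiesterases with at least a 2-fold called difference (top) and for all PKA subunits and the AKAPs with at least a 2-fold called difference (bottom). Pde8b, Akap14, Akap2, Akap12 and Prkar1a are the genes plotted whose astrocyte points lie above their neuron points.

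All 6 PKA subunit genes were tested and all passed, 5 higher in neurons and 1, Prkar1a, higher in astrocytes. For all tested genes the shares were 31.0% higher in neurons and 31.1% higher in astrocytes. The catalytic subunits showed small to moderate differences. Prkaca, which encodes the catalytic alpha subunit found in most tissues, had 1952 and 1728 in neurons, against 1327 and 1220 in astrocytes (1.44-fold, log2 fold change 0.53, SE 0.12, adjusted p = 0.00491). Its call was lost without neurons replicate 1 (adjusted p = 0.0710) or astrocytes replicate 2 (0.0720), and its second probe set did not pass (158 and 155 in neurons, 127 and 123 in astrocytes, adjusted p = 0.150). Prkacb, the catalytic beta subunit that is abundant in brain, had 1148 and 1068 in neurons, against 430 and 413 in astrocytes (2.58-fold, log2 fold change 1.37, SE 0.12, adjusted p = 2.29e-05). For both genes each neuron array lay above each astrocyte array, as for 41.4% of all tested genes.

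Both regulatory subunit genes of type II were higher in neurons, and the astrocyte signals of Prkar2b lay around background. Prkar2b encodes RII-beta, the form that is prominent in neurons and in fat. It had 1269 and 1612 in neurons, against 20 and 11 in astrocytes. The fitted log2 fold change of 5.71 (SE 0.21, adjusted p = 2.41e-07) depends on the offset and is no exact size, since those astrocyte signals do not stand clear of background. Only the neuron arrays carried Prkar2b through the filter. A second Prkar2b probe set had 1224 and 1324 in neurons and 5 and 11 in astrocytes, at or under background there, and was at least 79.6-fold higher in neurons. The third, at 139 and 232 in neurons and 7 and 13 in astrocytes, was at least 11.6-fold higher. Background here is the highest signal among 27 Bacillus subtilis control probe sets, which was 21 and 23 for neurons and 17 and 15 for astrocytes. All 3 probe sets thus placed the astrocyte signal near or under background; their mean gave a log2 fold change of 4.93, and a 4 times larger offset gave 4.50. Prkar2a, which encodes the widely expressed RII-alpha, was well above background in both cultures, with 696 and 773 in neurons, against 390 and 360 in astrocytes (1.93-fold, log2 fold change 0.95, SE 0.13, adjusted p = 0.000331).

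The 2 regulatory subunit genes of type I went in opposite directions. Prkar1b, which encodes the brain-enriched RI-beta, had 2574 and 2194 in neurons, against 437 and 505 in astrocytes (4.95-fold, log2 fold change 2.31, SE 0.13, adjusted p = 2.05e-06). All 5 of its probe sets were called higher in neurons, with log2 fold changes from 1.35 to 2.41. Prkar1a, which encodes the RI-alpha of nearly all cells, had 1689 and 2059 in neurons, against 2389 and 2333 in astrocytes. By that probe set it was 1.26-fold higher in astrocytes (log2 fold change -0.34, SE 0.12, adjusted p = 0.0444). A second Prkar1a probe set showed a larger difference of the same direction, with 518 and 491 in neurons against 1388 and 1554 in astrocytes (log2 fold change -1.52, SE 0.12), and the third did not pass (63 and 63 in neurons, 65 and 79 in astrocytes, adjusted p = 0.536). The call of the brightest Prkar1a probe set was lost without the filter (adjusted p = 0.117), with quantile normalization (0.0544), without the mean-variance trend (0.137) and without neurons replicate 1 (0.225), astrocytes replicate 1 (0.215) or astrocytes replicate 2 (0.184). The mean of its 3 probe sets gave -0.67.

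Promoter stretches of these 2 type I genes are shown for the cAMP response element, the site bound by CREB. Prkar1a was the 1 member found with the full element. Prkar1b holds only a short form of it. Short elements were printed for members called with at least a 4-fold difference, where the whole stretch lay before the start. Of 9 such members with a window, 3 held the short element and 1, Prkar1b, could be shown. Stretches of 30 bases are given 5′ to 3′ on the gene's strand, from RefSeq windows on GRCm38.p6 (250 bases before to 50 after a gene start), with the element in capitals. The Prkar1a stretch lies at chr11:109650889-109650918 on the plus strand, and its full element starts 49 bases before an annotated start and 38 bases after another. The Prkar1b stretch lies at chr5:139150033-139150062 on the minus strand, with a short element that starts 49 bases before an annotated start. Prkar1b has 5 windows.
Prkar1a: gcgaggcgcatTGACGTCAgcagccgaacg
Prkar1b: tagagggcggagTGACGggcaggaggacga
Windows were listed for 41 of the 51 genes. The full element TGACGTCA was found in 1 of these 41 genes, Prkar1a (2.44%), against 2.03% of 27025 genes with a window. The short element TGACG, searched on both strands and also contained in the full element, was found in 14 of the 41 (34.1%), against 23.0% of all genes with a window. It was in 10 of the 24 genes higher in neurons, 2 of the 5 higher in astrocytes, 2 of the 5 that did not pass and 0 of the 7 too dim to be tested. A gene was counted if any of its windows held the element, and the 41 genes had 83 windows. The number of windows per gene was not matched to that of all genes. The windows of the 41 genes had a median GC content of 61.0%, against 52.8% for all genes, and a match is a description of the letters only.

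AKAP genes were divided between the cultures: 6 of 14 were higher in neurons, 4 were higher in astrocytes, 2 did not pass and 2 were too dim. Of the 12 tested, 50% were higher in neurons and 33.3% in astrocytes, against 31.0% and 31.1% of all tested genes. The astrocyte share was thus near that of all genes. Akap5, which encodes the anchor that holds PKA, protein kinase C and calcineurin at postsynaptic membranes, had 180 and 107 in neurons, against 31 and 19 in astrocytes (4.10-fold, log2 fold change 2.03, SE 0.28, adjusted p = 0.000348; 1.35 with a 4 times larger offset). Only the neuron arrays carried Akap5 through the filter. Akap11, which also binds glycogen synthase kinase 3, had 1765 and 1503 in neurons, against 514 and 589 in astrocytes (2.92-fold, log2 fold change 1.54, SE 0.13, adjusted p = 2.06e-05). Akap9, an anchor at the centrosome and Golgi with a splice form that binds NMDA receptors, had 752 and 928 in neurons, against 318 and 266 in astrocytes (2.79-fold, log2 fold change 1.48, SE 0.16, adjusted p = 6.52e-05). All 4 tested Akap9 probe sets were called higher in neurons.

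The remaining AKAPs higher in neurons showed differences of about the same size or smaller. Akap6, the anchor of the nuclear envelope, had 823 and 771 in neurons, against 320 and 256 in astrocytes (2.71-fold, log2 fold change 1.44, SE 0.15, adjusted p = 5.57e-05). Akap7, which tethers PKA to L-type calcium channels, had 443 and 464 in neurons, against 222 and 181 in astrocytes (2.19-fold, log2 fold change 1.13, SE 0.15, adjusted p = 0.000292). Akap1, the anchor of the outer mitochondrial membrane, had 281 and 321 in neurons, against 150 and 168 in astrocytes (1.83-fold, adjusted p = 0.00155). A second Akap1 probe set did not pass (72 and 78 in neurons, 52 and 46 in astrocytes, log2 fold change 0.51, adjusted p = 0.0600). In each of these 3 genes both neuron arrays exceeded both astrocyte arrays, as in 41.4% of all tested genes. The nuclear Akap8 (409 and 472 in neurons, 379 and 413 in astrocytes, 95% interval of the log2 fold change -0.17 to 0.47) and the mitochondrial Akap10 (73 and 89 in neurons, 59 and 86 in astrocytes, -0.37 to 0.67) did not pass.

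Akap12 and Akap2 were the AKAPs with the largest excess in astrocytes. Akap12, a scaffold of the plasma membrane and actin cytoskeleton also called gravin, had 253 and 386 in neurons, against 4469 and 4586 in astrocytes (14.0-fold higher in astrocytes, log2 fold change -3.80, SE 0.18, adjusted p = 7.84e-07). Akap2, which binds actin, had 256 and 304 in neurons, against 1253 and 1280 in astrocytes (4.39-fold higher in astrocytes, log2 fold change -2.13, SE 0.13, adjusted p = 3.19e-06). Its second probe set gave -2.04. Among 10 markers of fibroblasts and meninges, astrocytes had the higher signal for 7 and neurons for 1, while 2 did not pass; 2 were at or under background in neurons. Their signals summed to 610 to 665 per neuron array and 4739 to 4862 per astrocyte array, of which Islr gave 29 and 32 in neurons and 2465 and 2689 in astrocytes, and Col1a1 gave 27 and 24 in neurons and 41 and 103 in astrocytes; their part in the AKAP differences was not tested.

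Akap14 and Akap13 completed the group. Akap14, an anchor described in human ciliary axonemes, was at 24 and 20 in neurons and 79 and 66 in astrocytes (2.46-fold higher in astrocytes, log2 fold change -1.30, SE 0.23, adjusted p = 0.00128). Only the astrocyte arrays carried Akap14 through the filter. The 8 ependymal markers summed to 226 to 255 per neuron array and 1165 to 1272 per astrocyte array. Most of the astrocyte sum came from Foxj1 (35 and 24 in neurons, 410 and 407 in astrocytes) and Dynlrb2 (21 and 38 in neurons, 376 and 439 in astrocytes). Of the 8, 4 were called higher in astrocytes and 4 were too dim, among them Ttr (44 and 19 in neurons, 14 and 11 in astrocytes) and Hydin (25 and 34 in neurons, 26 and 33 in astrocytes). The part of ciliated cells was not tested. Akap13 had 126 and 132 in neurons, against 195 and 208 in astrocytes (1.51-fold higher in astrocytes, log2 fold change -0.60, SE 0.16, adjusted p = 0.0114). Its call was lost without neurons replicate 1 (adjusted p = 0.0576), astrocytes replicate 1 (0.0645) or astrocytes replicate 2 (0.0872). A second, dim Akap13 probe set was also called higher in astrocytes (log2 fold change -0.99).

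Called probe sets of a gene gave one direction. Of 22 genes with more than 1 tested probe set, 0 had probe sets called in both directions by limma. The size of the change differed more: in 7 of these genes the log2 fold changes of the probe sets spread over more than 1. Over all 79 tested probe sets of the cAMP genes, 52 were higher in neurons, 12 were higher in astrocytes and 15 did not pass, where 29.4% and 27.7% of all 25019 tested probe sets were higher in neurons and in astrocytes. Some of the 52 reached the filter through the neuron arrays alone, among them every Prkar2b probe set and dimmer ones of Pde2a and Pde4d. The dim Akap13 probe set reached it through the astrocyte arrays alone. A difference was built into the passing of such probe sets. Probe sets of 1 gene share their transcripts and are not replicates of each other.

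**Figure D4:**
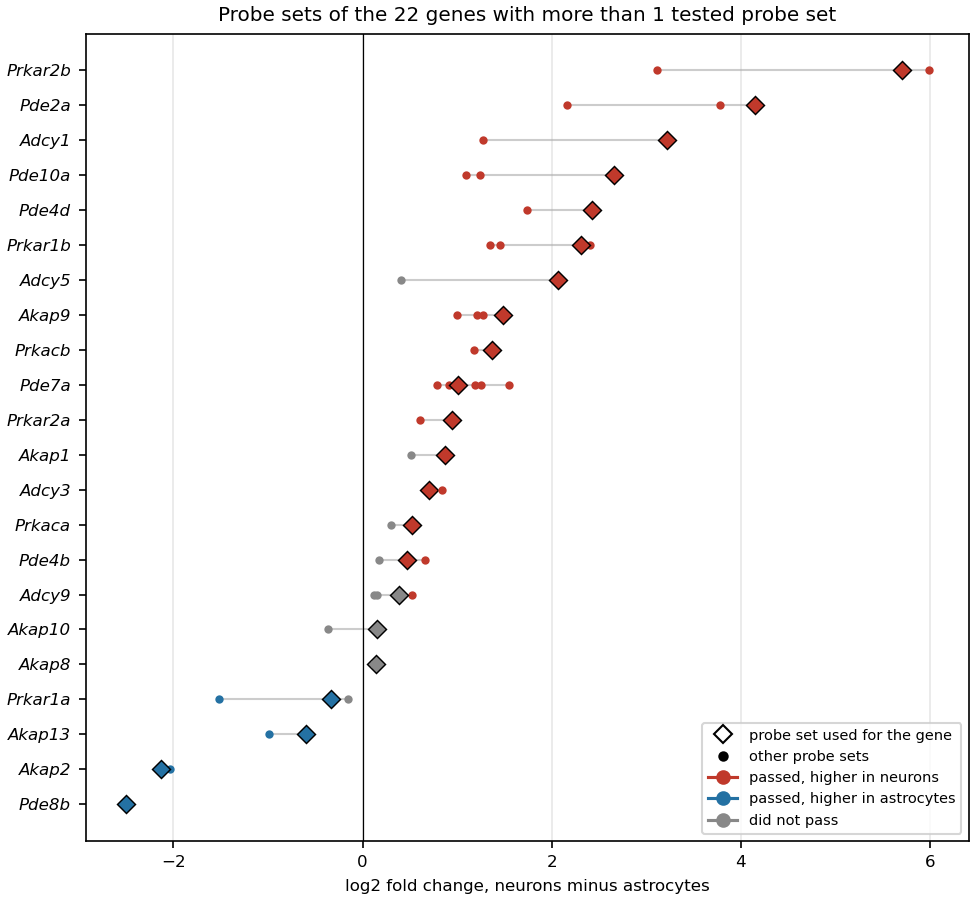
Log2 fold change (neurons minus astrocytes) of each tested probe set of the 22 genes with more than 1, where diamonds mark the probe set that stands for the gene, circles the others and grey lines their range. Prkar2b runs from 3.11 to 5.99 and Adcy5 from 0.40 to 2.07, and Akap10 is the gene whose probe sets lie on both sides of 0, neither of them called.

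The genes too dim to be tested were Adcy4, Adcy10, Pde1c, Pde3a, Pde6a, Pde6b, Pde6c, Pde11a, Akap3 and Akap4. Adcy10 encodes the bicarbonate-activated soluble cyclase, and Akap3 and Akap4 are anchors of the sperm tail. No probe set of these 10 genes exceeded a signal of 43 on any array, reached by Pde11a on neurons replicate 2. When all genes were tested without the filter, 2 of the 10 passed, Pde6c (15 and 11 in neurons, 3 and 3 in astrocytes, adjusted p = 0.0455) and Akap3 (25 and 10 in neurons, 1 and 1 in astrocytes, adjusted p = 0.0473). Both neuron signals of Pde6c lay under the background of those arrays. In that test 27 of the 51 genes were higher in neurons and 6 in astrocytes, against 18.6% and 18.4% of all 18193 genes.

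Other genes of the pathway, from lists of 90 genes that the symbol rule does not cover, were read the same way. Of these, 77 had a probe set of their own, 59 were tested, 29 were higher in neurons, 12 were higher in astrocytes and 18 did not pass, where 31.0% of all tested genes were higher in neurons, 31.1% in astrocytes and 62.2% in either. As 41 of the 59 passed, the share called in either direction was near that of all genes. The 29 include genes that reached the filter through the neuron arrays alone, such as Sphkap, Arpp21, Hcn3, Gucy1a1 and Gucy1b1. Rab32, among the 12, reached it through the astrocyte arrays alone. A difference was built into the passing of such genes, here and in the counts by list below. Upstream of the cyclases, the receptor gene Adcyap1r1 for the peptide PACAP had 623 and 610 in neurons and 2 and 3 in astrocytes, at least 38.5-fold higher in neurons. Of the 23 receptors listed as coupled to the stimulatory G protein, 7 were tested, 5 were higher in neurons and 0 in astrocytes (also 0 at an unadjusted p under 0.05 in limma). All 5 (Adcyap1r1, Calcrl, Drd1, Gpr6 and Gpr12) reached the filter through the neuron arrays alone. Their direction was thus built into their passing, and the count of 5 is no separate support for a difference. Gpr12, an orphan receptor of this class, had 198 and 192 in neurons and 9 and 21 in astrocytes (log2 fold change 2.95).

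Among 7 alpha subunits of G proteins, all tested, 4 were higher in neurons and 1 in astrocytes. The shares of all tested genes were 31.0% and 31.1%. Gnas, the stimulatory one, did not pass (4823 and 4730 in neurons, 4106 and 4576 in astrocytes, adjusted p = 0.276). Gnal, its relative of olfactory and striatal neurons, had 682 and 572 in neurons and 36 and 27 in astrocytes (log2 fold change 3.86). The inhibitory subunits differed: Gnai1 had 4493 and 4533 in neurons and 361 and 363 in astrocytes (log2 fold change 3.60), whereas Gnai2 had 836 and 803 in neurons and 2134 and 2221 in astrocytes (log2 fold change -1.40) and Gnai3 did not pass (1217 and 1548 in neurons, 1378 and 1386 in astrocytes, log2 fold change -0.01, adjusted p = 0.958). Gnal, Gnai1 and Gnai2 each had an adjusted p of at most 1.11e-05.

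Downstream, inhibitors and readers of the signal differed in both directions. Pkia, which encodes the protein kinase inhibitor that binds free catalytic subunits, had 3638 and 3710 in neurons and 1886 and 1519 in astrocytes (log2 fold change 1.11). Rapgef3, which encodes the cAMP-activated exchange factor Epac1, had 52 and 56 in neurons and 377 and 477 in astrocytes (log2 fold change -2.72, adjusted p = 4.11e-06). Hcn3, a gene of the HCN channel family, had 117 and 117 in neurons and 5 and 1 in astrocytes, at least 7.31-fold higher in neurons. Hcn2 of the same family had 95 and 96 in neurons and 26 and 40 in astrocytes (log2 fold change 1.26, with adjusted p = 0.0507 without neurons replicate 2). Of the 10 genes listed as readers of cAMP other than PKA, 6 were tested, and 3 of these were higher in neurons and 1 in astrocytes. The third was Rapgef2, an exchange factor for Rap, at 1921 and 1786 in neurons and 1496 and 1482 in astrocytes (log2 fold change 0.31, adjusted p = 0.0351), whose call was lost without the filter (0.0636), the mean-variance trend (0.126) or any 1 array (0.0764 to 0.140) and with the replicate block (0.0615). Of 11 CREB family and coactivator genes, 9 were tested, 2 were higher in neurons and 3 in astrocytes. The shares of all tested genes were 31.0% in neurons and 31.1% in astrocytes. Sik1, which encodes a kinase that phosphorylates the CREB coactivators, had 48 and 74 in neurons and 16 and 22 in astrocytes (log2 fold change 1.21), and its call was lost without neurons replicate 2 (adjusted p = 0.0638), astrocytes replicate 1 (0.0828) or astrocytes replicate 2 (0.0539). Crem, a CREB relative, had 71 and 68 in neurons and 406 and 384 in astrocytes (log2 fold change -2.31), and the coactivator gene Crtc1 had 197 and 177 in neurons and 80 and 74 in astrocytes (log2 fold change 1.16). The other two higher in astrocytes were Crtc3 (118 and 130 in neurons, 298 and 308 in astrocytes, log2 fold change -1.21) and Sik3 (550 and 454 in neurons, 964 and 908 in astrocytes, log2 fold change -0.89). Creb1 itself did not pass (531 and 554 in neurons, 454 and 429 in astrocytes, adjusted p = 0.0809).

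Further PKA substrates, the cGMP side and further anchors completed these lists. Of 5 PKA substrates listed, 4 were tested and 3 were higher in neurons. For all tested genes the shares were 31.0% in neurons and 31.1% in astrocytes. Arpp21, which encodes a substrate that binds calmodulin, had 1269 and 953 in neurons and 14 and 15 in astrocytes, at least 69.4-fold higher in neurons, and Ppp1r1a, which encodes an inhibitor of protein phosphatase 1, had 538 and 621 in neurons and 60 and 83 in astrocytes (log2 fold change 2.83). Ensa did not pass (715 and 633 in neurons, 672 and 771 in astrocytes, adjusted p = 0.570). Gucy1b1 and Gucy1a1, which encode subunits of the nitric oxide receptor guanylyl cyclase, were far higher in neurons, Gucy1b1 with 1212 and 1198 in neurons and 24 and 16 in astrocytes and Gucy1a1 with 586 and 791 in neurons and 13 and 18 in astrocytes. Gucy1a2, another subunit, had 342 and 257 in neurons and 187 and 146 in astrocytes (log2 fold change 0.80), and its call was lost without neurons replicate 1 (adjusted p = 0.112), astrocytes replicate 1 (0.0599) or astrocytes replicate 2 (0.131). The natriuretic peptide receptor gene Npr2 went the other way (45 and 48 in neurons, 204 and 231 in astrocytes, log2 fold change -1.96). Of 17 anchors outside the rule, 6 were higher in neurons, led by Sphkap (2067 and 1658 in neurons, 8 and 6 in astrocytes, at least 116-fold) and Wasf1 (2868 and 2777 in neurons, 124 and 100 in astrocytes, log2 fold change 4.52), and 6 in astrocytes, led by Sdc4 (183 and 131 in neurons, 2099 and 2469 in astrocytes, log2 fold change -3.77) and Rab32 (30 and 13 in neurons, 321 and 297 in astrocytes, log2 fold change -3.29). Map2, a microtubule-associated anchor of dendrites, had 4706 and 4989 in neurons and 1487 and 1269 in astrocytes (log2 fold change 1.81). Sphkap is an anchor of neurons, Wasf1 a regulator of actin, Sdc4 a syndecan of the cell surface and Rab32 a GTPase of mitochondria.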

How the data were processed

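RNA of 2 neuron and 2 astrocyte cultures was hybridized to Affymetrix arrays after 2 cycles of cDNA synthesis from 50 ng of total RNA, per the labels' protocols. Each deposited value is a linear intensity per probe set, made by the authors with MAS5 according to the submitters' processing notes, which name no version. The mean after trimming 2% at each end was 149.997 to 150.002 on each array, and values were kept as scaled. Of 45101 probe sets, 64 controls were left out. Gene names came from the platform annotation (34945 probe sets with 1 symbol, 932 with several, 9160 with none), and 34741 were updated by Entrez identifier; Akap2 kept the platform's name.

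Values were transformed to log2(value + 12.5), the offset being the median of the arrays' 25th percentiles, which understates the change of dim genes. The 25019 probe sets at or above the array's median on at least 2 arrays entered limma 3.58.1 (R 4.3.3; lmFit, then eBayes with trended prior variance; two-sided tests, Benjamini-Hochberg over all kept probe sets, threshold 0.05, 2 residual degrees of freedom). The fit was also run on simulated arrays with independent noise and far fewer changed probe sets than were called here. That run does not measure the accuracy of the fit on these data. Each gene stands by whichever of its kept probe sets had the highest mean. The number of arrays limits the precision (median SE of a log2 fold change 0.20), and an exact permutation test over 2 against 2 arrays cannot go below p = 0.333. Titles call the arrays biological replicates. Where a group's arrays both fell at or below the Bacillus subtilis controls, "at least" folds divide the bright group's mean signal by the mean control level of the dim group's arrays.

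The members, gene lists and tests were chosen with earlier results of these data known. Named with full values were all PKA subunits and the other members called with at least a 2-fold difference, and from each further pathway list the 2 largest called changes in each direction and the gene with the highest mean; other genes and probe sets named were chosen after their values were seen. Alternatives covered the offset, filter, normalization, variance trend, probe sets, replicate block and each array left out.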

Additional observations from a re-analysis of the deposited data

How the results depend on the processing

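The 41 tested genes gave 475 pairs of a gene and an alternative, in which 0 called directions reversed, 435 kept their side of the threshold and 40 calls were lost. With 1 array left out, 21 to 24 of the 51 genes were higher in neurons (27 with all arrays) and 4 to 7 in astrocytes (8 with all arrays; 4 without neurons replicate 1 or astrocytes replicate 2, 5 without astrocytes replicate 1). By family these ranges were 3 to 4 in neurons and 0 to 1 in astrocytes for adenylyl cyclases, 7 to 10 and 1 to 2 for phosphodiesterases, 4 to 5 and 0 to 1 for PKA subunits, and 6 to 6 and 3 to 4 for AKAPs; for the other pathway genes they were 25 to 27 and 11 to 11. The counts of 0 by limma held 1 adenylyl cyclase and 0 PKA subunits at an unadjusted p under 0.05. With the filter at the 75th percentile, where fewer genes were tested, 7 phosphodiesterases were higher in neurons and 1 in astrocytes, and 19 other pathway genes were higher in neurons. For phosphodiesterases higher in astrocytes the count was also 1 without the filter and 1 without probe sets ending in _s_at, _x_at or _a_at, where Pde5a was lost. For PKA subunits higher in astrocytes it was 0 by limma without the filter, 0 with quantile normalization and 0 without the mean-variance trend (1, 1 and 0 at an unadjusted p under 0.05), since Prkar1a was lost; the cause was not tested. Replicate numbers are shared by the groups, but nothing says that they mark a shared litter or day, and same-numbered arrays did not deviate together (correlation across probe sets -0.09); with the replicate block 26 genes were higher in neurons and 8 in astrocytes, and Pde4b was the member whose call was lost (adjusted p = 0.0537). Signals near background, such as those of Adcy7, Akap14 and Pde5a, limit what these arrays can show for them.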
